A study of Gallus gallus with 6 samples.

Results

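The integrins, laminins and core basement membrane genes of the chick wing bud were followed in explants cultured with or without an inhibitor of Fgf receptors. The genes were taken by symbol. Integrin alpha subunits were those named ITGA followed by a number alone, and ITGAV. Alpha subunits whose symbol ends in another letter were not taken. Numbered integrin beta subunits and laminin alpha, beta and gamma chains were taken as named in the annotation, together with nidogen, agrin and perlecan (HSPG2). The genes taken came to 29 of the 21062 genes with normalised counts. These were 10 integrin alpha subunits, 7 integrin beta subunits, 4 laminin alpha chains, 4 laminin beta chains, 1 laminin gamma chain (LAMC1), and the trio NID1, AGRN and HSPG2. RefSeq also lists ITGA5, ITGB4, LAMA2, LAMC3 and NID2 for the chicken, and these were not analysed here. Shares of a class given below are therefore over the genes found.

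Basement membranes are thin sheets of matrix under epithelia and around vessels and muscle. Laminins are trimers of an alpha, a beta and a gamma chain that polymerise into such a sheet, and nidogen, perlecan and agrin tie the laminin network to collagen IV and to the cell. Integrins are pairs of an alpha and a beta subunit that bind laminins, fibronectin, vitronectin and other ligands outside the cell and link them to actin or keratin filaments inside. In the limb bud a basement membrane separates the ectoderm, with its apical ridge that secretes Fgfs, from the mesenchyme.

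Posterior pieces of wild-type (WT) wing buds at Hamburger Hamilton stage HH20 were embedded in Matrigel and cultured for 48 h. The medium held either the solvent DMSO (3 libraries) or SU5402, a small-molecule inhibitor of Fgf receptor kinases, at 5 µM (3 libraries). Each library was made from explants pooled within 1 replicate experiment. Matrigel is itself a basement membrane extract from a mouse tumour, rich in laminin and collagen IV, so all 6 libraries grew in supplied matrix protein, which sequencing of chick RNA does not read. The labels call the cells mesenchyme.

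The libraries held 25849833 to 44261768 reads on genes. The first principal component took 67.2% of the variance and separated the treatments. All 6 Fgf target genes examined (MKP3, SPRY1, SPRY2, SPRY4, ETV4 and ETV5) fell by more than 2-fold, and their summed FPKM (a level scaled by gene length and by sequencing depth) was 149 to 156 with DMSO and 32.4 to 36.4 with SU5402. Markers of limb mesenchyme were abundant in all libraries, but the explants also held RNA of other cell types. The summed FPKM was 1082 to 1163 with DMSO and 789 to 874 with SU5402 for 6 mesenchyme markers. These markers did not move together. HAND2, PRRX1 and MSX1 were lower with SU5402 (log2 fold change -0.81, -0.40 and -1.16), while TBX5, TWIST1 and PDGFRA had values of -0.03, 0.13 and 0.23. The summed FPKM was 266 to 338 and 686 to 744 for 12 ectoderm markers, 181 to 186 and 28.7 to 32.3 for 8 endothelium markers, and 29.9 to 36.8 and 149 to 208 for 12 myogenic markers. For 9 macrophage markers it was 17.5 to 20.6 and 32.3 to 41.2. Among all these markers only MYMK was at 0 in any library, the library of DMSO replicate 2. In such bulk libraries, fewer cells of a type and less RNA per cell cannot be told apart.

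Integrin and basement membrane genes moved in both directions under SU5402. The laminin beta chain LAMB4 rose 8.07-fold, while the laminin alpha chain LAMA4 and the integrin subunits ITGB3 and ITGB2 fell by more than 2-fold. These were the 4 of 29 genes (13.8%) that passed an adjusted p of 0.05 with a change above 2-fold, against 10.8% of the 16324 genes tested. By direction, 1 was higher and 3 were lower, against 6.26% and 4.54% of all genes tested. The adjusted p, from limma's moderated test on log2(normalised count + 1) with Benjamini-Hochberg adjustment over all genes tested, was below 0.05 without a fold threshold for 15 of the 29 genes (51.7%), 7 higher and 8 lower. Over all genes tested that share was 30.4% (14.4% higher and 16.0% lower). The libraries of the treatments did not overlap for 19 of the 29 genes, 8 higher and 11 lower, against 49.7% of all genes tested (24.2% higher and 25.6% lower). With edgeR's quasi-likelihood test on the recovered reads, 20 of the 29 passed the adjusted p alone, against 37.8% of all genes tested. The median log2 fold change was -0.15 over the 29 genes and 0.01 over all genes tested. All 29 passed the filter on low counts, and the lowest normalised count of any of them in any library was 11.8, for ITGB6.

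**Figure D1:**
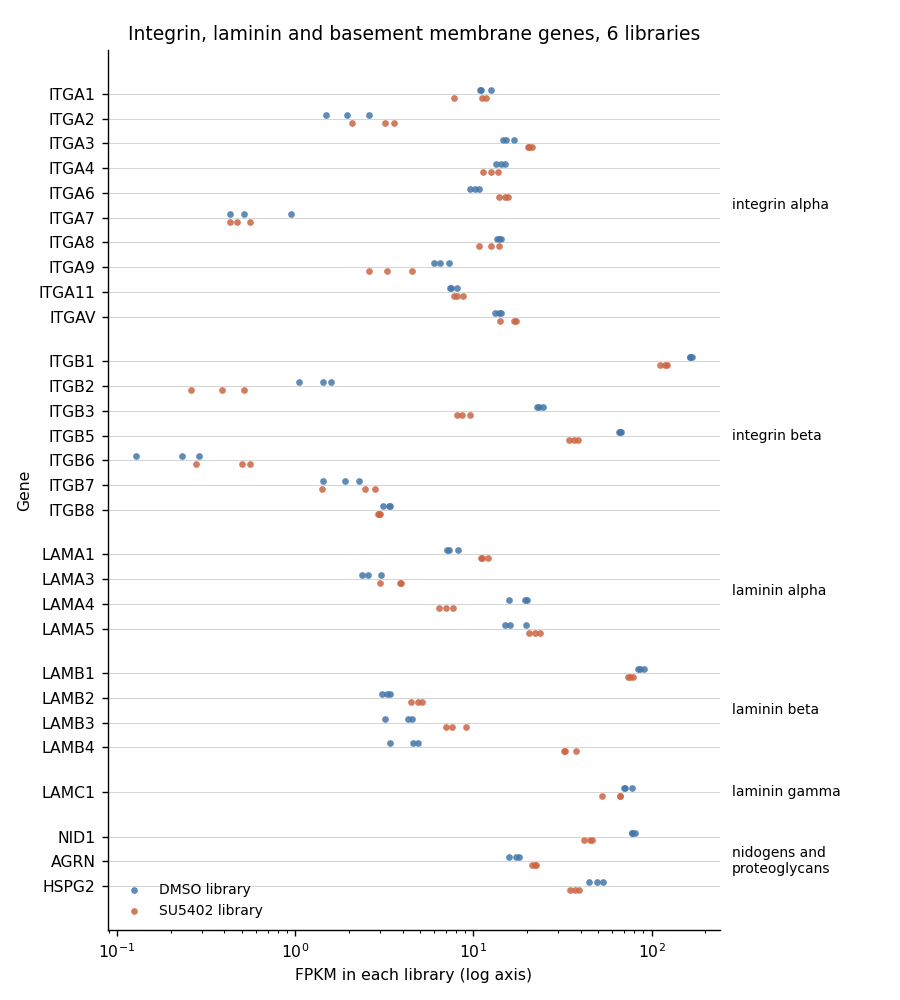
FPKM (log axis) of each of the 29 genes in each of the 6 libraries, by subunit class, with DMSO and SU5402 libraries as separate points. ITGB1 was the most abundant, at 163 to 169 FPKM with DMSO and 112 to 123 with SU5402, and the LAMB4 points of the treatments lie farther apart than those of any other gene plotted.

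LAMB4 encodes a laminin beta chain of the vertebrates about whose function little is known (ENSGALG00000007917, GRCg6a chromosome 1, positions 15053471 to 15105407). Its normalised counts were 945, 887 and 660 in the DMSO libraries and 6354, 7312 and 6276 in the SU5402 libraries. Every SU5402 library was several times above every DMSO library. The mean rose from 831 ± 151 to 6647 ± 577 (SD, n = 3), with a log2 fold change of 3.01 (SE 0.16, limma adjusted p = 4.0e-04). Leaving out any 1 library gave a log2 fold change between 2.85 and 3.11.

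LAMB1, the widespread beta chain of embryonic laminins, had normalised counts of 17056, 17923 and 16502 with DMSO and 15500, 14967 and 14653 with SU5402. The SU5402 libraries were all slightly lower, but the difference did not pass the test (log2 fold change -0.19, 95% interval -0.34 to -0.04, limma adjusted p = 0.066). The annotated span of LAMB1 (chromosome 1, positions 15009296 to 15165846) encloses that of LAMB4 on the same strand. In the newer RefSeq annotation on GRCg7b the spans of these genes do not overlap. On GRCg6a the LAMB1 span also overlaps LRRK2 on the same strand and encloses ERGIC2 on the other strand, with mean levels of 2.34 and 25.2 FPKM. The LAMB4 count rose while the LAMB1 count was no higher in any SU5402 library than in any DMSO library. Whether any read could have been counted for either LAMB1 or LAMB4, and whether the other overlaps affected the LAMB1 count, was not tested.

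The other beta chains rose as well. LAMB2, a chain of muscle, nerve and kidney basement membranes, went from 3.25 ± 0.168 to 4.82 ± 0.351 FPKM (SD, n = 3, log2 fold change 0.57, SE 0.08, limma adjusted p = 0.0062). The annotated span of LAMB2 holds unnamed protein-coding genes and a pseudogene on the same strand, with mean levels of 0.157 to 0.373 FPKM. Whether they affected the LAMB2 count was not tested. LAMB3, a beta chain of skin epithelium, had normalised counts of 555, 527 and 390 with DMSO and 863, 1114 and 922 with SU5402. Its libraries did not overlap, and its log2 fold change was 0.99 (SE 0.17, limma adjusted p = 0.012), just under the 2-fold threshold. Without DMSO replicate 1, DMSO replicate 2, SU5402 replicate 1 or SU5402 replicate 3 the LAMB3 change was over 2-fold (log2 fold change 1.08, 1.05, 1.06 and 1.01).

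The make-up of the beta chain messages differed between the treatments. LAMB4 made up 4.91%, 4.44% and 3.63% of the summed beta chain FPKM in the DMSO libraries and 26.5%, 29.6% and 27.1% in the SU5402 libraries. LAMB1 took 88.3% ± 1.07 with DMSO and 61.9% ± 2.01 with SU5402 (SD, n = 3). It was the most abundant beta chain in each of the 6 libraries. The summed beta chain FPKM was 93.5 to 103 with DMSO and 119 to 127 with SU5402.

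**Figure D2:**
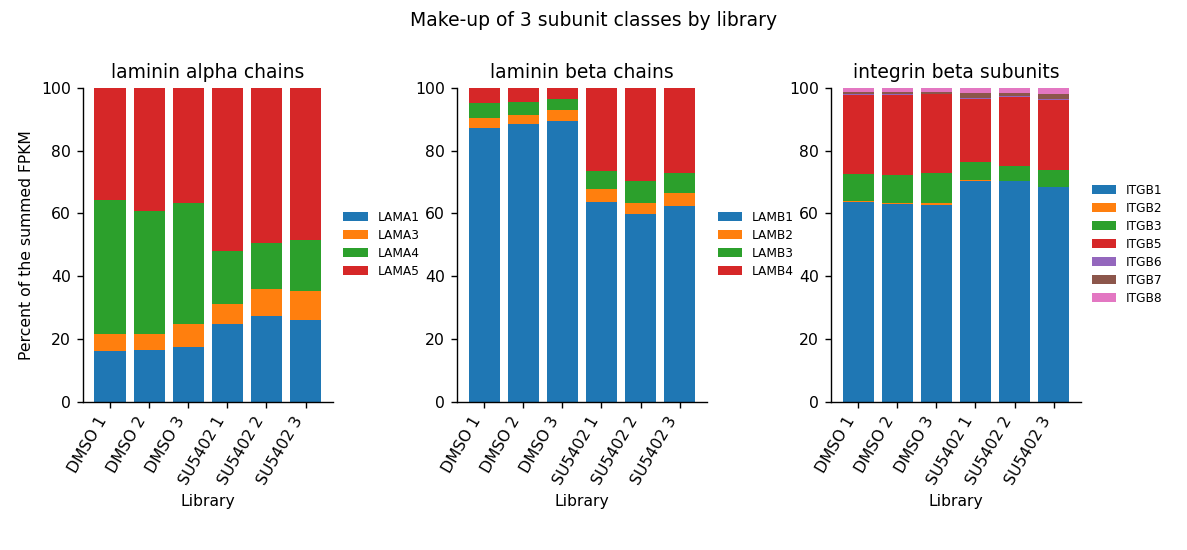
Percent of the summed FPKM of the laminin alpha chains, the laminin beta chains and the integrin beta subunits taken by each gene, 1 bar per library. The LAMB4 share was 3.63 to 4.91% with DMSO and 26.5 to 29.6% with SU5402, and the LAMA4 share was 38.7 to 43.0% and 14.4 to 16.9%.

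Among the laminin alpha chains, LAMA4 fell and LAMA1 rose. LAMA4 (ENSGALG00000015001, chromosome 3, positions 65714396 to 65810805) is the alpha chain typical of blood vessels and of mesenchymal tissues. Its normalised counts were 3704, 3803 and 3016 with DMSO and 1458, 1222 and 1340 with SU5402. The lowest DMSO library was at more than double the highest SU5402 library. The log2 fold change was -1.38 (SE 0.12, limma adjusted p = 0.0015), which is 2.61-fold lower, and it lay between -1.49 and -1.32 when any 1 library was left out.

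LAMA1, the alpha chain of the earliest embryonic basement membranes, rose from 7.53 ± 0.616 to 11.5 ± 0.591 FPKM (SD, n = 3, log2 fold change 0.61, SE 0.08, limma adjusted p = 0.0056). LAMA5, the most widespread alpha chain of epithelial and vessel basement membranes, had normalised counts of 6098, 7492 and 5695 with DMSO and 8947, 8367 and 7835 with SU5402. Its libraries did not overlap, yet it did not pass the test (log2 fold change 0.39, 95% interval 0.08 to 0.70, limma adjusted p = 0.065). It passed without DMSO replicate 2, the highest of the DMSO libraries (limma adjusted p = 0.027). LAMA3, the alpha partner of LAMB3 in skin, had overlapping libraries (2.38 to 3.03 and 2.98 to 3.90 FPKM, log2 fold change 0.43, limma adjusted p = 0.085), and passed without SU5402 replicate 1 (limma adjusted p = 0.047).

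The summed FPKM of the alpha chains overlapped between the treatments, at 40.9 to 50.5 with DMSO and 42.6 to 45.3 with SU5402. Within that sum LAMA4 took 40.4% ± 2.32 with DMSO and 15.9% ± 1.32 with SU5402 (SD, n = 3). LAMA5 took 35.6 to 39.1% and 48.4 to 52.0%, and LAMA1 took 16.1 to 17.3% and 24.6 to 27.3%. LAMA4 was on average the largest alpha chain with DMSO and the third with SU5402, although in DMSO replicate 2 LAMA4 and LAMA5 were almost level (19.9 and 19.7 FPKM).

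LAMC1, the gamma chain shared by most laminins, had normalised counts of 11541, 12822 and 11719 with DMSO and 10855, 10864 and 8642 with SU5402. All SU5402 libraries were lower than all DMSO libraries, but the difference did not pass the test (log2 fold change -0.26, 95% interval -0.54 to 0.03, limma adjusted p = 0.15). The highest SU5402 libraries stood close to the lowest DMSO library.

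NID1, which bridges the laminin gamma chain and collagen IV, fell. Its normalised counts were 9258, 9290 and 9626 with DMSO and 5529, 5391 and 4958 with SU5402, 1.78-fold lower (log2 fold change -0.83, SE 0.06, limma adjusted p = 0.0010). The libraries lay far apart relative to their spread. The ratio of NID1 to LAMC1 FPKM was 1.08 ± 0.0705 with DMSO and 0.724 ± 0.0570 with SU5402 (SD, n = 3).

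The proteoglycans moved in opposite directions by smaller amounts. HSPG2 (perlecan), a large heparan sulphate proteoglycan that binds Fgfs, had 44.7, 53.5 and 49.6 FPKM with DMSO and 39.0, 34.9 and 37.4 with SU5402 (log2 fold change -0.41, SE 0.09, limma adjusted p = 0.024). AGRN (agrin), which clusters acetylcholine receptors at nerve endings and binds laminin in many tissues, had 15.8, 18.1 and 17.3 FPKM with DMSO and 22.2, 22.4 and 21.3 with SU5402 (log2 fold change 0.37, SE 0.07, limma adjusted p = 0.016). Neither had overlapping libraries, but both calls were lost when some libraries were left out. HSPG2 did not pass without DMSO replicate 2 or 3 or without SU5402 replicate 1, 2 or 3 (limma adjusted p = 0.066, 0.074, 0.052, 0.071 and 0.066). AGRN did not pass without DMSO replicate 3 or without SU5402 replicate 1 or 2 (limma adjusted p = 0.050, 0.057 and 0.052).

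**Figure D3:**
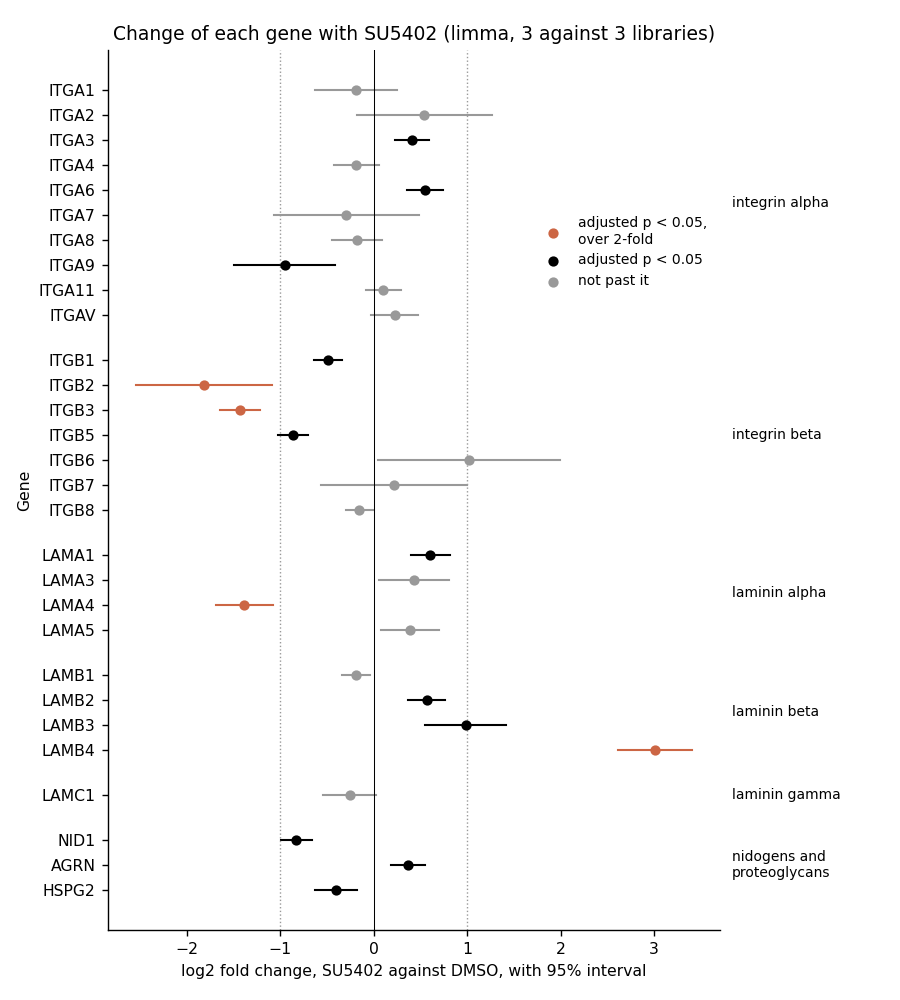
Log2 fold change of SU5402 against DMSO for each of the 29 genes, with its 95% interval from limma, and dotted lines at 2-fold. LAMB4 at 3.01 stands far to the right, LAMA4, ITGB3 and ITGB2 lie left of the 2-fold line, and no integrin beta subunit that passed the test was higher.

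In the integrin beta class 4 of 7 subunits fell and none rose past the test (16.0% of all genes tested were lower and 14.4% higher), with a median log2 fold change of -0.49. ITGB1, which pairs with most alpha subunits and serves as the general laminin and collagen receptor subunit, was the most abundant of the 29 genes. Its normalised counts were 21583, 20999 and 20871 with DMSO and 15167, 15652 and 14290 with SU5402. The fall was 1.41-fold (log2 fold change -0.49, SE 0.06, limma adjusted p = 0.0038), and the libraries of the treatments were far apart.

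ITGB3 and ITGB5 pair with ITGAV to form receptors for vitronectin and other ligands with an RGD motif. For ITGB3 (ENSGALG00000000379, chromosome 27, positions 4721958 to 4738989) the normalised counts were 2627, 2707 and 2865 with DMSO and 1112, 936 and 997 with SU5402. Every DMSO library was at more than double the highest SU5402 library. The log2 fold change was -1.43 (SE 0.08, limma adjusted p = 5.0e-04), or 2.70-fold lower, and ranged from -1.50 to -1.37 when any 1 library was left out.

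For ITGB5 the normalised counts were 6795, 6745 and 6615 with DMSO and 3463, 3892 and 3712 with SU5402, 1.82-fold lower (log2 fold change -0.87, SE 0.06, limma adjusted p = 9.2e-04). The alpha partner did not fall with them. ITGAV had normalised counts of 2742, 2693 and 2535 with DMSO and 3360, 3273 and 2723 with SU5402 (log2 fold change 0.23, 95% interval -0.02 to 0.48, limma adjusted p = 0.15). The SU5402 replicate 3 value lay among the DMSO values, and without that library ITGAV passed as higher (log2 fold change 0.32, limma adjusted p = 0.040). The ratio of ITGB3 to ITGAV FPKM was 1.59, 1.67 and 1.88 with DMSO and 0.550, 0.475 and 0.608 with SU5402, and that of ITGB5 to ITGAV was 4.83 ± 0.133 and 2.28 ± 0.317 (SD, n = 3).

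ITGB2 is the beta subunit of leukocyte integrins, and it was low in all libraries (ENSGALG00000007511, chromosome 7, positions 7177686 to 7189495). Its normalised counts were 172.1, 125.4 and 189.5 with DMSO and 61.6, 46.4 and 31.1 with SU5402. The libraries did not overlap, and ITGB2 was 3.53-fold lower (log2 fold change -1.82, SE 0.29, limma adjusted p = 0.0089). On the log2(FPKM + 1) scale, which shrinks changes of low genes, the ITGB2 change was -0.76 and so under 2-fold.

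The other beta subunits did not pass the test. ITGB8, a further partner of ITGAV, was at 3.11 to 3.40 FPKM with DMSO and 2.93 to 2.99 with SU5402 (log2 fold change -0.15, limma adjusted p = 0.11). ITGB6, the epithelial partner of ITGAV, was near the floor of the data, with normalised counts of 26.5, 21.4 and 11.8 and then 25.7, 46.4 and 51.2 (log2 fold change 1.02, 95% interval 0.05 to 2.00, limma adjusted p = 0.10). ITGB7, a lymphocyte subunit, had overlapping libraries (1.42 to 2.28 and 1.41 to 2.79 FPKM, limma adjusted p = 0.64). Its annotated span overlaps that of RARG on the same strand, so its low count is uncertain. The summed FPKM of the beta subunits was 260 to 266 with DMSO and 164 to 174 with SU5402, and ITGB1 took 63.1% ± 0.370 and 69.7% ± 1.15 of it (SD, n = 3).

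Of the 10 integrin alpha subunits 2 rose, 1 fell and 7 did not pass the test, a share near the 30.4% of all genes tested, with a median log2 fold change of -0.04. Both that rose are receptors for laminin. ITGA3 had normalised counts of 2386, 2637 and 2295 with DMSO and 3204, 3337 and 3162 with SU5402 (log2 fold change 0.41, SE 0.07, limma adjusted p = 0.013). ITGA6, which pairs with ITGB1 or, in hemidesmosomes, with ITGB4, had 1474, 1657 and 1558 with DMSO and 2321, 2412 and 2147 with SU5402 (log2 fold change 0.55, SE 0.08, limma adjusted p = 0.0057). Neither gene had overlapping libraries, and ITGA3 had the highest level of the alpha subunits in both treatments, at 15.6 ± 1.13 and 20.7 ± 0.583 FPKM (SD, n = 3). With DMSO the libraries of ITGA3 reached into the range of ITGA4, whose mean was 14.2 FPKM, so the order of these neighbours did not exceed their spread.

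ITGA9, a receptor subunit for tenascin and other ligands, was the alpha subunit that fell. It had 5.98, 7.25 and 6.45 FPKM with DMSO and 4.51, 3.27 and 2.61 with SU5402 (log2 fold change -0.95, SE 0.21, limma adjusted p = 0.025). The SU5402 libraries were all lower but spread widely. ITGA9 did not pass without DMSO replicate 1, 2 or 3 or without SU5402 replicate 2 (limma adjusted p = 0.055, 0.080, 0.070 and 0.075), and without SU5402 replicate 1 its fall exceeded 2-fold (log2 fold change -1.16, limma adjusted p = 0.012).

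The remaining alpha subunits gave log2 fold changes between -0.29 and 0.54, and the libraries of the treatments overlapped for each of them. The collagen receptors ITGA1, ITGA2 and ITGA11 had log2 fold changes of -0.19 (95% interval -0.63 to 0.25), 0.54 (-0.18 to 1.26) and 0.10 (-0.09 to 0.29). ITGA4 and ITGA8, receptors for fibronectin and for nephronectin respectively among other ligands, had values of -0.19 (-0.42 to 0.05) and -0.18 (-0.44 to 0.09). ITGA7, the laminin receptor of muscle, was at 0.429 to 0.941 FPKM with DMSO and 0.431 to 0.555 with SU5402 (log2 fold change -0.29, -1.07 to 0.48), and the sign turned, to 0.035, without DMSO replicate 3. All 12 myogenic markers rose in the same libraries, and 9 to 12 of them passed when 1 library was left out. DES did not pass without DMSO replicate 1, 2 or 3 or SU5402 replicate 1 or 3, TNNC1 without DMSO replicate 2 or 3 or SU5402 replicate 1 or 3, and MYMK without SU5402 replicate 1 (limma adjusted p from 0.050 to 0.13). The summed FPKM of the alpha subunits was 94.5 to 98.9 with DMSO and 95.7 to 107 with SU5402, which overlapped, unlike the sum of the beta subunits.

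Cell type markers moved alongside several of these genes. All 8 endothelium markers fell, 7 of them by more than 2-fold (4.54% of all genes tested did). CDH5, the cadherin of vessel walls, fell the most, from 51.5 ± 0.906 to 0.273 ± 0.0474 FPKM (SD, n = 3). ERG, the marker under 2-fold, fell from 35.3 ± 2.93 to 19.3 ± 2.17 FPKM (SD, n = 3, log2 fold change -0.87). ERG made up most of the summed endothelium FPKM in each SU5402 library. LAMA4 and ITGB3, which vessels also express, fell in the same libraries. LAMA5, described above as a chain of vessel as well as epithelial basement membranes, did not fall. It was higher in every SU5402 library than in any DMSO library, but did not pass with limma (log2 fold change 0.39, limma adjusted p = 0.065). With SU5402, LAMA4 was at 7.03 ± 0.621 FPKM and ITGB3 at 8.74 ± 0.772 FPKM (SD, n = 3). All 12 ectoderm markers rose, 8 of them by more than 2-fold (6.26% of all genes tested did), with a median log2 fold change of 1.17. LAMB3, LAMB4, ITGA6 and LAMA1 rose in the same libraries, as did ITGA3, LAMB2 and AGRN. LAMA3, LAMA5 and ITGB6, described above as genes of epithelia or skin, did not pass with limma (log2 fold change 0.43, 0.39 and 1.02, limma adjusted p = 0.085, 0.065 and 0.10). With edgeR's quasi-likelihood test LAMA3 and LAMA5 passed as higher (edgeR adjusted p = 0.010 and 0.0029), and ITGB6 did not (0.097). With 1 library left out, 11 or 12 ectoderm markers passed, 6 to 9 of them by more than 2-fold. KRT14 did not pass without DMSO replicate 2 or 3 or SU5402 replicate 1 (limma adjusted p = 0.065, 0.067 and 0.050). The log2 fold change of LAMB4, 3.01, was above that of 11 of the 12 ectoderm markers. The part of the endothelium and ectoderm markers in these results was not tested.

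Macrophage markers went the other way from ITGB2. Of 9 measured, 6 rose and none fell past the test (14.4% and 16.0% of all genes tested did), with a median log2 fold change of 1.00, while ITGB2 fell. With 1 library left out, 5 to 7 macrophage markers passed. LAPTM5 did not pass without DMSO replicate 1 or 2 or SU5402 replicate 1 or 2 (limma adjusted p = 0.051, 0.054, 0.063 and 0.061), and MARCO came to pass without SU5402 replicate 3 (limma adjusted p = 0.029). Thrombocytes, the bird counterpart of platelets, also carry ITGB3. Of 7 thrombocyte markers listed, only 4 were measured. Of these 2 rose and none fell past the test, against 14.4% and 16.0% of all genes tested. GP1BB and GP5 did not pass and had opposite signs (log2 fold change -0.44 and 0.37, limma adjusted p = 0.084 and 0.22). The summed FPKM of the 4 markers was 6.82 to 7.78 with DMSO and 9.42 to 11.8 with SU5402. GP9, which rose, was near the floor, with 4, 7 and 4 reads in the DMSO libraries. TUBB1, which also rose, went from 3.63 to 6.26 FPKM in the mean. Without SU5402 replicate 3, GP1BB passed as lower (limma adjusted p = 0.033), and without DMSO replicate 3, GP5 passed as higher (limma adjusted p = 0.034). The part of macrophages and thrombocytes in the ITGB2 and ITGB3 results was not tested.

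**Figure D4:**
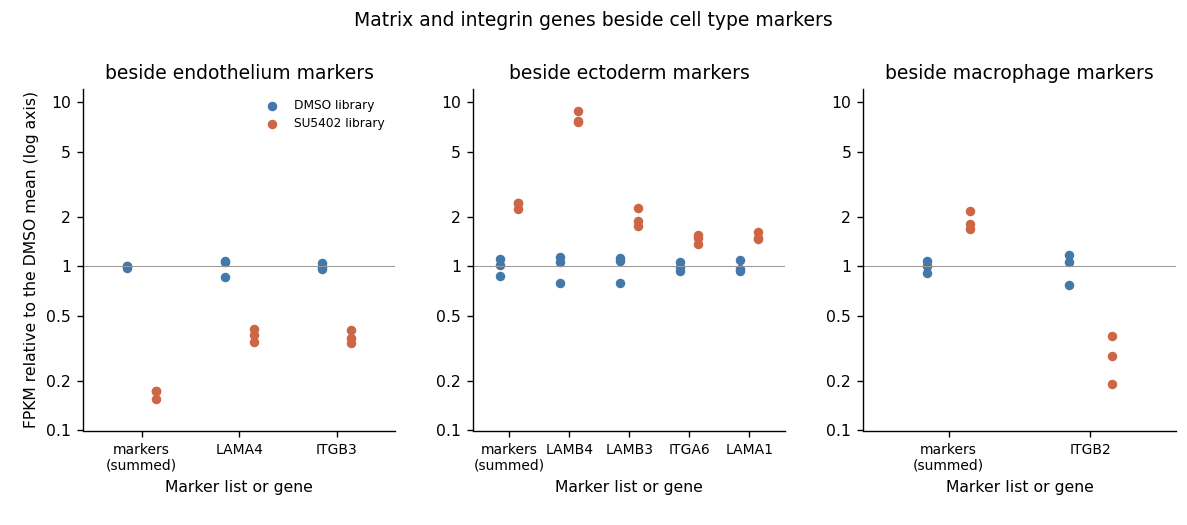
FPKM relative to the DMSO mean (log axis) in each library, for summed endothelium, ectoderm and macrophage markers and for integrin and laminin genes beside them. LAMA4 and ITGB3 were lower with SU5402 as the endothelium markers were, LAMB4, LAMB3, ITGA6 and LAMA1 were higher as the ectoderm markers were, and ITGB2 was lower while the macrophage markers were higher. LAMA5, also of vessel basement membranes and not lower, is not plotted.

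Other genes of the basement membrane also moved in both directions. Of 17 measured, 5 rose and 5 fell past the test (14.4% and 16.0% of all genes tested), with a median log2 fold change of -0.13. By more than 2-fold, 3 of them rose and 3 fell (6.26% and 4.54% of all genes tested). COL4A1 and COL4A2, the paired chains of the collagen IV network that nidogen joins to laminin, fell together. COL4A1 had 13.8, 14.7 and 14.6 FPKM with DMSO and 4.05, 3.28 and 3.81 with SU5402 (log2 fold change -1.95, SE 0.09, limma adjusted p = 3.2e-04). COL4A2 fell from 12.2 ± 0.247 to 2.98 ± 0.323 FPKM (SD, n = 3, log2 fold change -2.04, SE 0.09, limma adjusted p = 2.9e-04). Neither chain had overlapping libraries, and their annotated spans overlap at the ends. The endothelium markers fell in the same libraries, and their part in this result was not tested.

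The related calcium-binding matrix proteins SMOC1 and SMOC2 changed in opposite directions. SMOC1 fell from 31.0 ± 4.39 to 8.50 ± 0.761 FPKM (SD, n = 3, limma adjusted p = 7.5e-04), and SMOC2 rose from 8.14 ± 2.17 to 46.9 ± 4.0 FPKM (SD, n = 3, limma adjusted p = 0.0013). COL17A1, the transmembrane collagen of hemidesmosomes, rose from 3.85 ± 0.985 to 12.4 ± 1.14 FPKM (SD, n = 3, limma adjusted p = 0.0043). NPNT (nephronectin), the ligand of the ITGA8 receptor, rose from 24.2 ± 1.5 to 51.1 ± 3.70 FPKM (SD, n = 3, limma adjusted p = 0.0010).

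Of 13 other matrix ligands of integrins tested, 5 rose and 4 fell past the test, against 14.4% and 16.0% of all genes tested. NPNT, already counted above with the basement membrane genes, was among those that rose. FN1 (fibronectin) rose from 49.2 ± 4.57 to 112 ± 5.30 FPKM (SD, n = 3, log2 fold change 1.19, SE 0.09, limma adjusted p = 9.7e-04). EDIL3, a ligand of ITGAV receptors, rose (log2 fold change 1.36, limma adjusted p = 0.0094). VTN (vitronectin), the ligand that names the ITGAV receptors, had 3.52, 2.85 and 3.08 FPKM with DMSO and 0.372, 0.102 and 0.426 with SU5402 (log2 fold change -3.53, SE 0.53, limma adjusted p = 0.0073). Ligands of 1 receptor family thus moved in both directions while ITGB3 and ITGB5 fell.

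Of 25 integrin-linked adhesion genes, 5 rose, 7 fell and 13 did not pass the test. Over all genes tested, 14.4% rose and 16.0% fell past it. The median log2 fold change of the 25 genes was -0.08. FERMT2 (a kindlin), which activates integrins through the tail of the beta subunit, fell from 130.0 ± 3.57 to 72.4 ± 0.523 FPKM (SD, n = 3, log2 fold change -0.84, SE 0.05, limma adjusted p = 5.5e-04). FERMT1, of the same family, had overlapping libraries and did not pass (log2 fold change -0.12, limma adjusted p = 0.45). LIMS2, of the complex with ILK and parvin, fell (log2 fold change -0.65, limma adjusted p = 0.0034), while PARVB rose (0.66, limma adjusted p = 0.010). DST, whose epithelial form binds keratin to hemidesmosomes, rose (log2 fold change 1.05, limma adjusted p = 0.0010), and PARVG, the blood cell parvin, fell (-1.03, limma adjusted p = 0.0048). Both are at the 2-fold threshold, under which DST came without DMSO replicate 3 or SU5402 replicate 2 (1.00 in each) and PARVG without DMSO replicate 1 or SU5402 replicate 3 (-0.94 and -0.95). TLN1, ILK, VCL, PXN and PTK2, general components of adhesions, had log2 fold changes between -0.05 and 0.04 and did not pass. Other genes of this list did pass. BCAR1, TLN2 and ZYX fell (log2 fold change -0.39, -0.35 and -0.22, limma adjusted p = 0.0075, 0.020 and 0.038), although ZYX no longer passed whichever library was left out. FBLIM1, KANK1 and PTK2B rose (log2 fold change 0.56, 0.38 and 0.68, limma adjusted p = 0.0088, 0.0061 and 0.016).

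**Figure D5:**
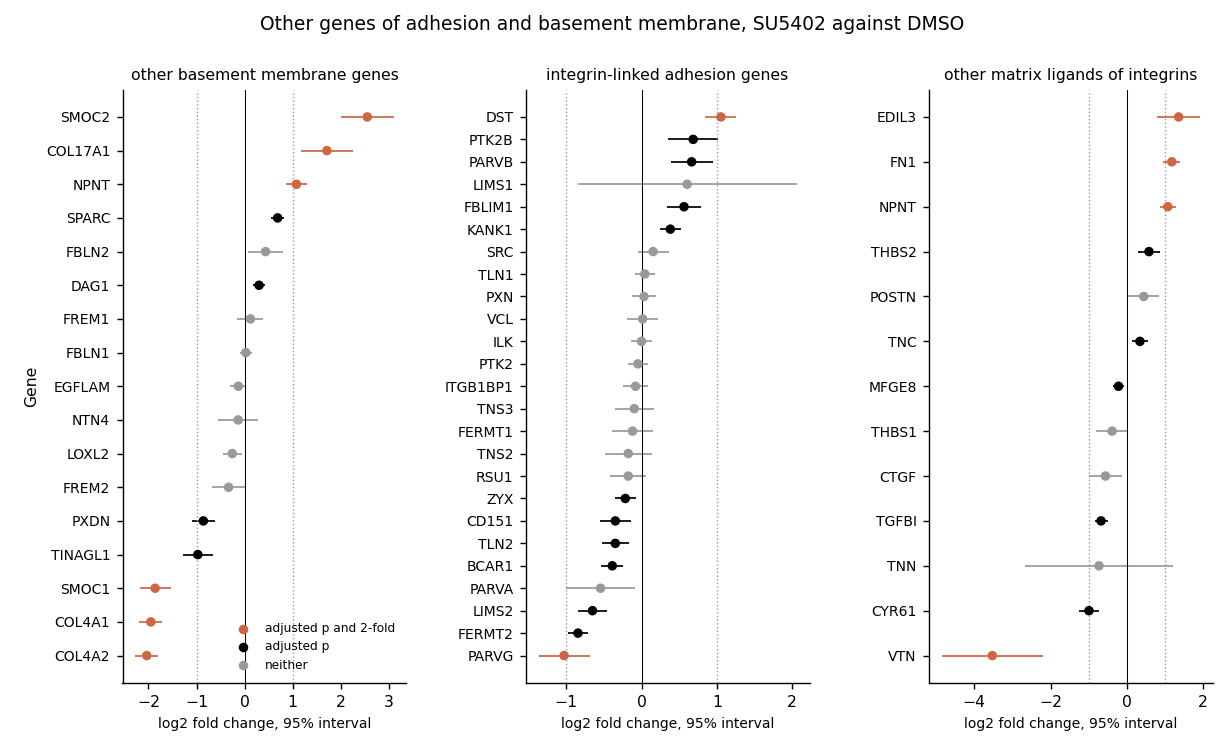
Log2 fold change of SU5402 against DMSO with its 95% interval from limma for the other basement membrane genes, the integrin-linked adhesion genes and the other matrix ligands of integrins that were tested. COL4A1 and COL4A2 lie near -2.0 and SMOC2 near 2.6, while VTN lies at -3.53 and FN1 at 1.19.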

How the data were processed

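Paired-end reads of poly-A RNA were aligned by the authors to chicken GRCg6a with HISAT2 2.0.5 and counted with featureCounts 1.5.0-p3. The deposited signal values are gene counts divided by DESeq2 1.20.0 size factors, and the deposited FPKM values use those counts with 1 shared total of 33590126 for all libraries. Whether the counting used strand was not given in the sources used here. The deposited mean, fold change and p-value columns, which hold the authors' own comparison, were not used.

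All of the values (100%) returned whole reads within 0.01, from which depth was read. Genes with at least 10 normalised counts in at least 3 libraries (16324) were tested with limma 3.58.1 in R 4.3.3 on log2(normalised count + 1), with no block, since the files hold normalised values. Fold changes of low genes are understated on that scale. P-values were adjusted by Benjamini and Hochberg. edgeR 4.0.16 on the recovered reads called 1853 genes past an adjusted p of 0.05 and 2-fold, against 1763 with limma. DESeq2 1.42.0, other filters, a pseudocount of 0.5, FPKM, a replicate block and leaving out each library were alternatives, and limma with an intensity trend was added after seeing the data. No correction for GC content or length was made.

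Every gene found by symbol is named. Values per library are given for genes past both thresholds, the most abundant gene of a class and known partners, and other genes come from lists of basement membrane, adhesion, ligand and marker genes. The genes and lists were chosen with earlier results of these data known. Replicates are separate experiments by the study's methods. No sequences were printed.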

Additional observations from a re-analysis of the deposited data

How the results depend on the processing

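Over 16 alternatives and 461 values of the 29 genes, 412 kept their direction and their side of adjusted p 0.05, 33 came to pass it, 15 ceased to pass it and 1 changed sign. That was ITGA7, which passed in no setting, at 0.035 without DMSO replicate 3 (log2 fold change -0.52 to 0.035 when leaving out 1 library each). With 1 library left out, 4 to 6 of the 29 genes passed both thresholds and 12 to 15 passed adjusted p alone, against 4 and 15 in full. Of the 54 other adhesion, ligand and basement membrane genes tested, 10 to 13 passed both, against 11 in full. Over all genes tested, 9.24 to 10.2% passed both, against 10.8% in full. The share past adjusted p alone was 20.4 to 23.2% of all genes, against 30.4% in full. ZYX and MFGE8, counted above as changed, and the mesenchyme marker PDGFRA failed to pass whichever library was left out (limma adjusted p = 0.066 to 0.11, 0.061 to 0.11 and 0.055 to 0.10). CD151, PTK2B, TLN2, THBS2 and TNC, also counted above as changed, each failed to pass without at least 1 library, as did the mesenchyme marker MSX1. edgeR (TMM or RLE) passed 20 of the 29 at adjusted p alone, adding ITGAV, LAMA3, LAMA5, LAMB1 and LAMC1, DESeq2 passed 21 and limma with a trend 20, each with 4 past both thresholds. These settings also passed more of all genes tested at adjusted p alone (37.8%, 38.5% and 38.3%, against 30.4%). Past both thresholds the shares of all genes tested were 11.4%, 11.4% and 11.6%, against 10.8%. On log2(FPKM + 1), 3 of 27 genes passed both and 17 passed adjusted p, against 6.47% and 36.8% of the genes tested on that scale. Of all genes, 903 of the 13956 tested on that scale passed both, against 1763 of 16324 (10.8%) in full. When leaving out 1 library, the class share with SU5402 minus that with DMSO was 22.5 to 24.1 percentage points for LAMB4, -25.4 to -23.2 for LAMA4 and 6.17 to 7.19 for ITGB1. Same-numbered libraries of the treatments deviated together with correlations of 0.0032 to 0.057, against -0.067 to 0.029 for libraries with different numbers. The numbers were not taken as pairs in the main fit. With the replicate block, limma passed 4 and 12 of the 29 (ITGA9, AGRN and HSPG2 did not pass) and edgeR 4 and 21, while 20.7% and 37.5% of all genes tested passed adjusted p alone. With the same block, 9.53% and 11.2% of all genes tested passed both thresholds. At 3 libraries a treatment, ITGB6, ITGB7, ITGA2 and ITGA7, and also ITGB2 and ITGA9, which passed the test, had 95% intervals wider than 1 log2 unit.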
